A study of Mus musculus with 3 samples.

Results

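*Acta2*-high myofibroblasts of the Day 7 wound were the fibroblasts in which transcripts of *Acta2*, the gene of smooth muscle alpha-actin, made up at least 0.15% of all captured transcripts. The rule kept 310 cells of 6683 gated fibroblasts, of 22924 cells in the Day 7 library and of 44693 cells in the 3 libraries of the study. The gate required at least 2000 unique molecular identifiers (UMIs, each standing for 1 captured transcript), at most 10% mitochondrial UMIs, at least 1.5% of UMIs from 8 fibroblast genes (*Dcn*, *Lum*, *Pdgfra*, *Col6a1*, *Col6a2*, *Col5a1*, *Pcolce* and *Col1a2*), less than 0.3% from 4 immune genes (*Lyz2*, *Tyrobp*, *Fcer1g* and *S100a9*) and at most 1 UMI of the pericyte gene *Rgs5*. The 6373 gated cells below the *Acta2* limit served as reference fibroblasts. Members and reference were therefore chosen by their own *Acta2* counts, and every contrast between them given here is a description without a test.

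The study profiled single cells from healing skin wounds of C57BL/6J mice at Days 3, 7 and 14. The animals were wild-type males aged 7 to 12 weeks with full-thickness dorsal excisional wounds, although the labels call the injury incisional. Each day was represented by 1 library of unsorted cells, dissociated with enzymes from wound tissue pooled from 4 samples of an unstated number of animals, so no day had a replicate and differences between days could not be separated from differences between libraries. No treatment or transgene distinguished the libraries used here, and no uninjured skin was analysed here.

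Myofibroblasts are fibroblasts that have assembled stress fibres containing smooth muscle actin, through which they pull on the matrix and draw a wound closed. Transforming growth factor beta, activins and mechanical tension are known to promote this state, and serum response factor with its myocardin-related cofactors drives many contractile genes through a short promoter element called the CArG box. Pericytes and vascular smooth muscle cells, together called mural cells, use a closely related contractile programme, which is why *Rgs5* was part of the gate. Universal or adventitial fibroblasts, marked by *Pi16* and *Dpp4*, are regarded as a resting reservoir of fibroblasts in many tissues.

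The Day 7 library held 120940799 UMIs, against 38133650 on Day 3 and 112713257 on Day 14. Members held 2329 to 40890 UMIs per cell with a median of 12287, and the reference median was 10442. The median mitochondrial share was 2.25% in members and 2.43% in the reference, and the abundant transcript *Gm42418*, which carries ribosomal RNA sequence, took 7.82% and 9.20% of the summed UMIs. Of the members, 2 carried a barcode sequence also present in the Day 3 library and 1 a barcode also present in the Day 14 library. Median genes per cell were 3330 in members and 2869 in the reference, and 1012 and 941 after each cell was thinned to 2000 UMIs.

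The promoter of *Acta2* is shown first because *Acta2* chose the cells, followed by the members of the contractile gene list whose 250 bases before the transcription start hold a CArG box. *Actb*, *Actg2*, *Csrp2*, *Myh11*, *Pxn* and *Tagln* were not searched. All sequences were taken from RefSeq on GRCm38.p6, the assembly also called mm10. The 150 bases immediately before the *Acta2* start lie at chr19:34255374-34255523 on the minus strand, and capitals mark the elements that differ from a CArG box at 1 position of its core, which begin 84 and 34 bases before the start.
Acta2: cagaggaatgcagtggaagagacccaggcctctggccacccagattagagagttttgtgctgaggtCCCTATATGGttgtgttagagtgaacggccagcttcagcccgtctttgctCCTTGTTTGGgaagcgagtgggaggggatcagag
Exact CArG boxes stood in 6 genes. *Fhl2* held a further exact box within chr1:43196828-43196877 (minus strand), 96 bases before another start of the gene, which is not shown. The boxes shown, 1 per gene, are in capitals within 50 bases of promoter. They lie at chr2:156775283-156775332 (*Myl9*, plus strand, 161 bases before the start), chr10:79988524-79988573 (*Cnn2*, plus strand, 56 bases), chr14:20929151-20929200 (*Vcl*, plus strand, 227 bases), chr1:43163963-43164012 (*Fhl2*, minus strand, 31 bases), chr10:128493030-128493079 (*Myl6*, minus strand, 50 bases) and chr11:120348556-120348605 (*Actg1*, minus strand, 90 bases).
Myl9: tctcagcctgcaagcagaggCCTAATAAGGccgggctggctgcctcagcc
Cnn2: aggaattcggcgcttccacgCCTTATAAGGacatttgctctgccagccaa
Vcl: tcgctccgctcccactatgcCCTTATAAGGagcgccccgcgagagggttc
Fhl2: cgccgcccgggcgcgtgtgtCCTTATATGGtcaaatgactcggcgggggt
Myl6: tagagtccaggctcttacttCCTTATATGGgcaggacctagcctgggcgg
Actg1: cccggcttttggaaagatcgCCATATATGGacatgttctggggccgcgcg
The element was searched on both strands. It was present in 439 of 27025 genes with a promoter in the table (1.62%) and in 6 of 31 genes of the contractile list and *Acta2* with an entry (19.4%). Allowing 1 mismatch in the core, a relaxation added after the exact search was seen, gave 2643 genes (9.78%) and 7 of the 31 (22.6%). A match is a description of these letters and not a mapped binding site.

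Besides *Acta2*, 5 markers were given with the rule, with earlier results of these data known. Their levels are therefore not independent evidence of cell identity. Of these, *Tagln*, *Myl9* and *Inhba* passed the abundance floor used below through members alone and could be called only as higher. *Tagln* (transgelin, an actin-bundling protein), *Myl9* (the regulatory light chain of smooth muscle and non-muscle myosin), *Tnn* (tenascin-W, a matrix glycoprotein), *Inhba* (the activin A subunit) and *Col12a1* (a collagen on the surface of fibrils) were all more than 2-fold higher in members than in the reference. At least 3 of these 5 genes were detected in 300 of 310 members (96.8%) and in 16.4% of reference cells, and all 5 in 140 members (45.2%) and 1.63% of reference cells. *Tagln* and *Myl9* were detected together in 263 members (84.8%). After thinning of every cell to 2000 UMIs, *Tagln* was detected in 74.8% of members, 4.90% of reference cells and 0.905% of myeloid cells, a class that should lack it and that had a median of 3725 UMIs per cell before thinning.

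*Acta2* itself ranged from 0.15% to 0.936% of UMIs among members, with a median of 0.241% and quartiles of 0.191% and 0.35%. In UMIs the range was 4 to 171 with a median of 31. The distribution had no gap at the limit. In total 129 cells lay close to it, 60 at 0.15% to 0.18% and 69 at 0.12% to 0.15%. *Tagln* stood at 604 UMIs per 1000000 UMIs (CPM) just inside and 450 CPM just outside, *Myl9* at 253 and 161 CPM, *Inhba* at 154 and 93.8 CPM and *Pi16* at 22.6 and 76.6 CPM. *Tnn* (385 and 376 CPM) and *Col12a1* (1681 and 1707 CPM) were level across the limit. Members are a range of *Acta2* cut at a limit, and no clustering over all genes was run.

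**Figure D1:**
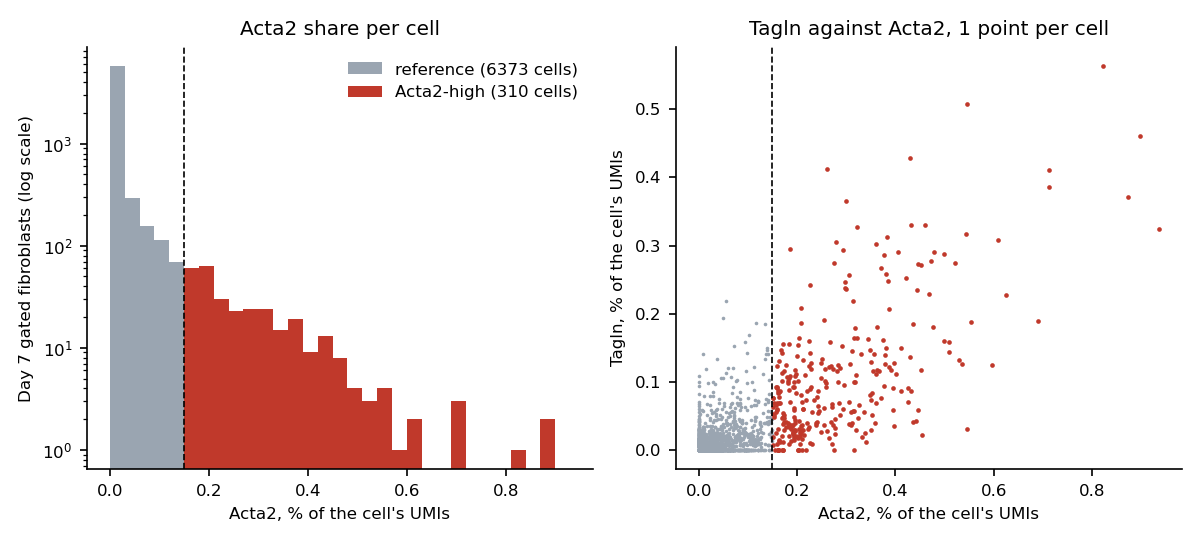
*Acta2* per cell in the gated Day 7 fibroblasts, as a histogram of its percent of UMIs with a logarithmic count axis, and *Tagln* percent against *Acta2* percent for single cells. The line marks the limit of 0.15%, and the histogram continues across it without a gap.

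The 310 members held 11524 of its 26540 *Acta2* UMIs (43.4%). Reference fibroblasts held 29.7%, the 221 cells with 2 or more *Rgs5* UMIs held 15% and myeloid cells held 0.746%. *Acta2* stood at 2842 CPM in members, 113 CPM in the reference and 21.6 CPM in myeloid cells. Of 438 cells that met the depth and mitochondrial limits and reached the *Acta2* limit, 94 were left out for *Rgs5*, 7 for immune genes and 27 for low fibroblast genes.

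Markers of immune, endothelial, epithelial, Schwann and pericyte classes were low. The 10 pericyte and smooth muscle markers summed to 83.4 CPM in members, 171 CPM in the reference and 2920 CPM in the 187 *Rgs5*-high mural cells of the same library, and *Higd1b* had no UMI in members. *Abcc9*, a potassium channel subunit typical of pericytes, stood at 2.47 CPM in members and 459 CPM in mural cells. Summed macrophage markers were 292 CPM in members, 474 CPM in the reference and 10639 CPM in myeloid cells. Endothelial markers summed to 12.8 CPM against 23.4 CPM in the reference, neutrophil markers to 52.3 against 78.8 CPM, T cell markers to 1.97 against 2.18 CPM, epithelial markers to 32.6 against 39.99 CPM and Schwann cell markers to 3.45 against 12.3 CPM. Skeletal muscle markers were higher in members, at 17.5 CPM against 5.15 CPM. Most of that sum was desmin (*Des*, a muscle intermediate filament, 12.6 CPM), which mural cells held at 271 CPM, and 3 of the 7 markers had no UMI in members.

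Across the transcriptome, members differed from the reference in both directions. Of 3048 genes with at least 50 CPM in either group and 10 UMIs in both, 119 (3.9%) were at least 2-fold higher and 245 (8.04%) at least 2-fold lower, and the 95% interval of the ratio lay wholly beyond 2-fold for 88 and 199 of them. The median log2 ratio of all 3048 genes was 0.25, with quartiles of -0.14 and 0.48. Scaled by that median, every log2 ratio is lower by 0.25, so that ratios between 0 and 0.25 turn negative, and the counts were 72 higher and 339 lower, moving the higher share of all calls from 32.7% to 17.5%. A floor of 50 CPM over all gated cells together, under which a gene cannot enter through the members alone, gave 59 higher and 241 lower. Under either floor, genes below 50 CPM in members entered through the reference and could be counted only as lower.

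**Figure D2:**
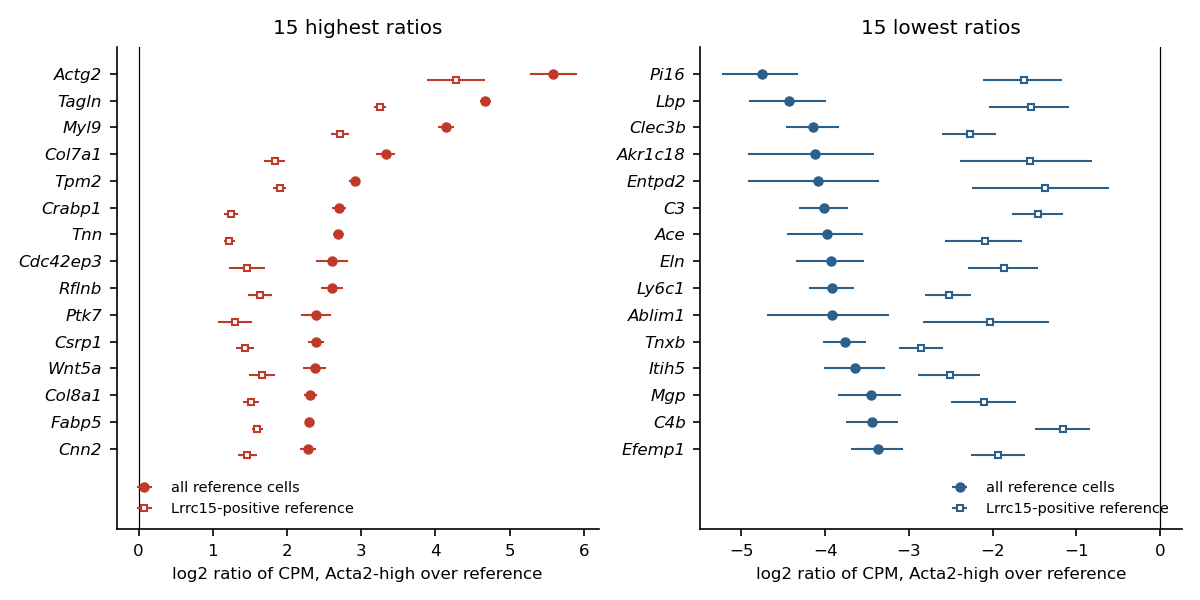
The 15 highest and 15 lowest genes by log2 ratio of CPM, members over reference, with 95% counting intervals. Filled points use all reference cells and open points the *Lrrc15*-positive reference cells, against which every one of the 30 genes lies nearer to 0 on the same side.

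Contractile and actin cytoskeleton genes made up 6 of the 15 highest ratios. These were *Actg2*, the enteric smooth muscle actin, *Tagln*, *Myl9*, *Tpm2*, *Csrp1* and *Cnn2*, of which all but *Tpm2* stood under 50 CPM in the reference and so entered the comparison only by being higher in members. Of 36 genes in the list, 29 passed the floor, 18 were at least 2-fold higher and none was 2-fold lower, beside 3.9% and 8.04% of all genes. The median log2 ratio of the list was 1.22, beside 0.25 for all genes. In the median member these 36 genes made up 2.54% of UMIs and in the median reference cell 1.02%. Outside the list, the gene of the actin-binding protein *Ablim1* was among the 15 lowest ratios, at 4.19 CPM against 63.2 CPM (-3.91). *Ablim1* reached 50 CPM in the reference alone and could be counted only as lower.

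*Tagln* ranged from 0 to 5632 CPM across single members with a median of 791 CPM and was detected in 295 of 310 (95.2%), against 14.3% of reference cells. Its summed level was 1068 CPM against 41.8 CPM, a log2 ratio of 4.67 (95% interval 4.61 to 4.74). Since some members had no *Tagln* UMI and some reference cells had one, the groups overlapped cell by cell. *Myl9* ranged from 0 to 2293 CPM with a median of 294 CPM, and its summed level was 361 CPM against 20.5 CPM, a log2 ratio of 4.14 (4.03 to 4.25).

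*Actg2* was sparse, with UMIs in 101 members (32.6%) and 1.08% of reference cells. Its summed level was 80.4 CPM against 1.67 CPM, a log2 ratio of 5.59 (5.28 to 5.90). *Actg2* and *Acta2* encode nearly identical proteins, and assignment of *Acta2* reads to *Actg2* was not tested. *Cnn1* (calponin, a smooth muscle actin-binding protein) was below the floor at 39.2 CPM against 0.801 CPM, a log2 ratio of 5.61 (5.17 to 6.08), with UMIs in 21.9% of members.

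Tropomyosins, which stabilise actin filaments, were broadly higher. *Tpm1* ranged from 0 to 5397 CPM with a median of 958 CPM per member and summed to 1112 CPM against 237 CPM (log2 ratio 2.23), *Tpm2* to 581 CPM against 77.2 CPM (2.91) and *Tpm4* to 891 CPM against 352 CPM (1.34). Cross-linkers and anchors of the filament followed, with *Actn1* (alpha-actinin) at 1.87, *Flna* (filamin) at 1.61, *Vcl* (vinculin) at 1.39 and *Palld* (palladin) at 1.29 on the log2 scale. The non-muscle myosin heavy chain *Myh9* stood at 707 CPM against 265 CPM (1.42).

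General actin genes differed less. *Actb* stood at 8324 CPM against 3578 CPM (1.22), *Actg1* had a log2 ratio of 0.79 and *Myl6*, the essential myosin light chain, one of 0.97. *Tagln2* stood at 0.43, *Zyx* (zyxin) at 0.26 and *Tns1* (tensin) at -0.24. The genes with an exact CArG box in the searched window thus ran from *Actg1* at 0.79 to *Myl9* at 4.14.

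Some smooth muscle genes of the contractile list were much lower in members than in mural cells, though not lower than in the reference. *Myh11*, the smooth muscle myosin heavy chain, had 15 UMIs in all members (3.70 CPM), against 417 CPM in mural cells. *Mylk*, the kinase that activates myosin light chain, reached 48.6 CPM in members, 11.8 CPM in the reference and 870 CPM in mural cells. *Synpo2* stood at 0.986 CPM against 120 CPM in mural cells. *Cnn1* went the other way, at 39.2 CPM in members and 10.6 CPM in mural cells, and *Actg2* stood at 80.4 CPM and 102 CPM.

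Cofactors of serum response factor and targets of YAP and TEAD, which link tension to contractile genes, stood on both sides of the reference. Of 15 genes in the list, 7 passed the floor, 1 was higher and 1 lower, with a median log2 ratio of 0.21, beside 3.9% and 8.04% of all genes. *Ccn2*, a matricellular growth factor and YAP target, was higher at 83.6 CPM against 32.7 CPM (1.35) and passed the floor through members alone, whereas *Axl*, a receptor tyrosine kinase, was lower (-1.08) and *Ccn1* stood at -0.58. *Yap1* had a log2 ratio of 0.73 and *Tead1* of 0.99. Below the floor, *Srf* stood at 14.6 CPM against 7.34 CPM, and the YAP targets *Ankrd1* and *Ajuba* at 8.63 CPM against 0.787 CPM (3.46) and 10.6 CPM against 3.48 CPM (1.61).

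Collagen chains stood on both sides of the reference. *Col7a1*, *Col8a1*, *Col11a1* and *Col12a1* were at least 2-fold higher in members and *Col14a1* lower, and the abundant chains *Col1a1* and *Col3a1*, which form the bulk of the scar, had ratios below 0. *Col1a1* ranged from 12613 to 85007 CPM across members with a median of 28621 CPM, and summed to 29923 CPM against 41650 CPM, a log2 ratio of -0.48 (-0.49 to -0.47). *Col3a1* summed to 17038 CPM against 34076 CPM (-1.0). Together the 7 fibrillar chains outside the gate took 50388 CPM in members and 78790 CPM in the reference. Of these 7, 6 passed the floor, 1 was higher and 1 lower, with a median of 0.15, beside 3.9% and 8.04% of all genes. The lower call was *Col3a1*, which lay at the threshold and was under 2-fold without cycling cells (-0.97), with an *Acta2* limit of 0.1% (-0.92) and against *Lrrc15*-positive reference cells (-0.82).

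*Col11a1*, a minor chain that sets fibril diameter, was the higher one at 76.2 CPM against 16.0 CPM (2.25), and like *Col7a1* it reached 50 CPM in members alone. Of 13 other collagen chains, 9 passed the floor, 3 were higher and 1 lower, with a median of 0.14, beside 3.9% and 8.04% of all genes. *Col7a1*, which forms the anchoring fibrils beneath the epidermis, stood at 199 CPM against 19.8 CPM, a log2 ratio of 3.33 (3.20 to 3.46), and was detected in 56.8% of members and 8.19% of reference cells. *Col8a1*, a short network-forming chain, stood at 308 CPM against 61.9 CPM (2.31) and *Col12a1* at 1999 CPM against 498 CPM (2.01). *Col12a1* was detected in every member, from 263 to 7057 CPM with a median of 1788 CPM. *Col14a1*, which also decorates fibrils, was the lower one at 193 CPM against 1266 CPM (-2.71).

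Enzymes that fold and cross-link collagen stood close to the shift of all genes. Among 23, 20 passed the floor and 1 was higher, *Loxl3* (a lysyl oxidase) at 197 CPM against 65.7 CPM (1.58), with a list median of 0.36 and beside 3.9% of all genes. The collagen chaperone *Serpinh1* had a log2 ratio of 0.59 and *Fkbp10* one of 0.87. Of 22 genes of folding and transport in the endoplasmic reticulum, 21 passed the floor and none reached 2-fold, beside 3.9% and 8.04% of all genes. Their median was 0.53 and 19 had ratios above 0. All genes had a median of 0.25 and a lower quartile of -0.14, so most of them also lay above 0.

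Matricellular and other glycoprotein matrix genes stood on both sides of the reference. Of 29, 26 passed the floor, with 4 higher and 4 lower, beside 3.9% and 8.04% of all genes, and a median log2 ratio of -0.18. Without cycling cells 4 were higher and 6 lower, and against *Lrrc15*-positive reference cells 2 were higher and 3 lower, with *Tnc* and *Ccn4* under 2-fold. The higher ones were *Tnn* at 528 CPM against 81.8 CPM (2.69, 2.62 to 2.76), *Tnc* (tenascin-C) at 2330 CPM against 599 CPM (1.96), *Spp1* (osteopontin) at 979 CPM against 257 CPM (1.93) and *Ccn4* at 330 CPM against 114 CPM (1.53). *Spp1* stood at 2758 CPM in the myeloid cells of the library, and the part of free RNA in its level was not tested. The wound matrix genes *Postn* (periostin, 0.15) and *Sparc* (-0.21) were near the reference, and *Fn1* (fibronectin) stood at -0.71.

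The lower genes of this matrix list included *Eln* (elastin) at 13.1 CPM against 199 CPM (-3.92), *Ccn3* at 29.1 CPM against 189 CPM (-2.70) and *Fgl2* (-2.52). *Fbn1*, the fibrillin of elastic microfibrils, stood at -0.998, just under 2-fold, and was not called. Among 15 proteoglycan and hyaluronan genes 11 passed the floor, 1 was higher and 3 lower, with a median of -0.79, beside 3.9% and 8.04% of all genes: *Gpc1*, a glypican, at 1.47, *Ogn* at -1.27, *Gpc6* at -1.59 and *Prelp* at -2.80.

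Of 17 matrix proteinase genes and inhibitors that passed the floor, 5 were lower and none was 2-fold higher, beside 8.04% and 3.9% of all genes, with a median of -0.60. They were *Mmp3* (stromelysin) at 80.7 CPM against 702 CPM (-3.12), *Adamts5* (an aggrecanase, -2.74), *Adamts1* (-1.64), *Mmp2* (gelatinase A, -1.57) and *Timp2* (-1.05). The membrane-bound metalloproteinase *Mmp14* had a log2 ratio of 0.42.

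Among 23 integrin and adhesion genes, 11 passed the floor and 3 were higher, with a median of 0.58, beside 3.9% of all genes. These were *Ncam1* (a neural cell adhesion molecule) at 314 CPM against 80.5 CPM (1.96), *Cdh11* (cadherin-11, which joins myofibroblasts) at 375 CPM against 158 CPM (1.25) and *Ilk* (integrin-linked kinase, 1.09). *Itgb1*, the common integrin beta chain, and *Itga5*, its fibronectin partner, each had a log2 ratio of 0.78, and *Itgav* one of 0.33. Against *Lrrc15*-positive reference cells no gene of the list was 2-fold higher, and *Ncam1* stood at 0.78.

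**Figure D3:**
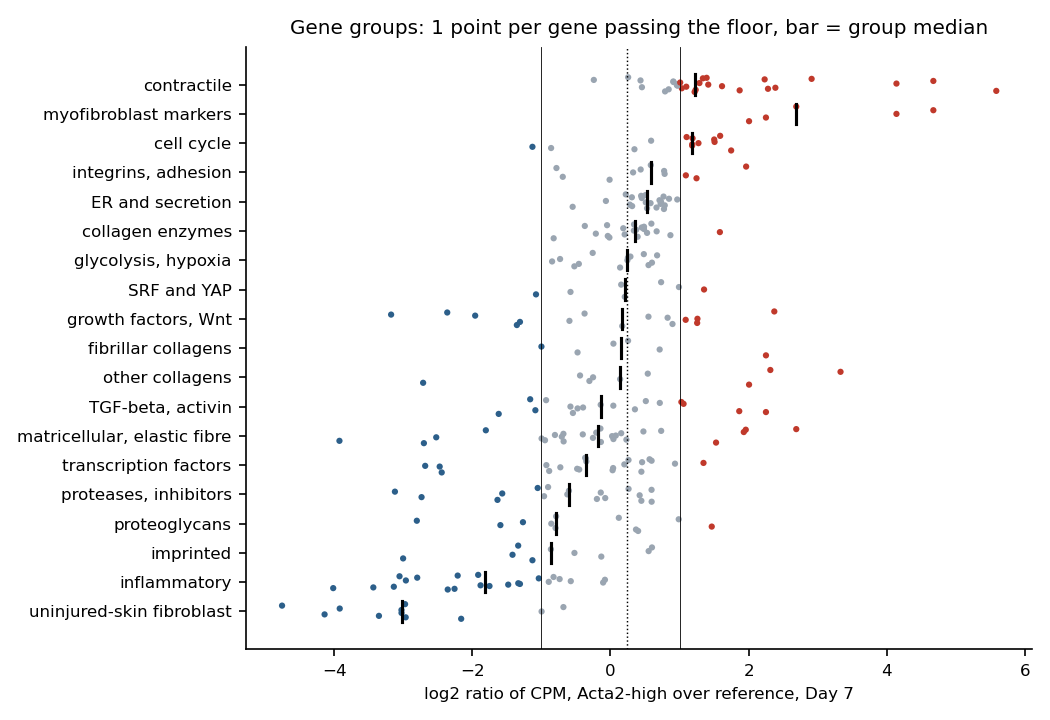
Log2 ratio of CPM, members over reference, for every gene of each list that passed the floor, with a bar at the list median and a dotted line at the median of all 3048 genes. Contractile and cell cycle genes lie mostly to the higher side, universal and inflammatory genes to the lower side, and most other lists straddle the dotted line.

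Genes of the transforming growth factor beta and activin pathway went both ways. *Inhba*, *Inhbb*, *Tgfb1* and *Tgfb3*, all ligands or ligand subunits, were at least 2-fold higher, and *Tgfbr3*, *Fst* and *Ltbp3* lower. Of 33 pathway genes, 17 passed the floor, 4 were higher and 3 lower, with a median log2 ratio of -0.14, beside 3.9% and 8.04% of all genes. *Inhba* ranged from 0 to 2660 CPM with a median of 63.2 CPM per member, and its summed level was 182 CPM against 38.2 CPM (2.25, 2.13 to 2.37). *Inhbb*, the activin B subunit, stood at 63.1 CPM against 17.3 CPM (1.86), *Tgfb1* at 51.3 CPM against 24.6 CPM (1.06) and *Tgfb3* at 52.3 CPM against 25.7 CPM (1.03). All 4 reached 50 CPM in members alone, so they could enter the comparison only by being higher there. *Tgfb1* ranged from 0.61 and *Tgfb3* from 0.74 upwards under the alternatives, below 2-fold, and the isoform *Tgfb2* stood at 0.71. Without cycling cells 3 genes of the list were higher.

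On the receiving side, the signalling receptor *Tgfbr2* had a log2 ratio of -0.93 and the co-receptor *Tgfbr3* one of -1.16. *Fst* (follistatin, which binds and blocks activins) was lower at 54.3 CPM against 167 CPM (-1.62), and *Ltbp3*, which holds the latent ligand in the matrix, was lower at -1.09. Against *Lrrc15*-positive reference cells no gene of the list was 2-fold lower. Response genes of the pathway lay on both sides of 0: *Smad7* stood at -0.14, *Pmepa1* at 0.35 and *Tgfbi* at 0.51.

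Growth factor and Wnt genes also went both ways, with 4 higher and 5 lower of 15 that passed the floor and a median of 0.17, beside 3.9% and 8.04% of all genes. Without cycling cells 3 were higher and 5 lower of 14, with a median of -0.013. Against *Lrrc15*-positive reference cells 2 were higher and 3 lower of 13. *Wnt5a*, a non-canonical Wnt ligand, stood at 115 CPM against 22.2 CPM, a log2 ratio of 2.37 (2.22 to 2.52), and was detected in 54.8% of members and 16.3% of reference cells. It reached 50 CPM in members alone, as did *Pdgfc*. *Ptk7*, a membrane protein of planar polarity signalling, was also among the 15 highest (2.39), and the *Wnt5a* receptor *Ror2* stood at 0.83. The platelet-derived growth factor receptor *Pdgfrb* (1.26) and the ligand *Pdgfc* (1.09) were also higher.

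The 5 lower genes were 2 secreted Wnt antagonists, a Wnt ligand and 2 growth factors. *Sfrp4* stood at 20.7 CPM against 187 CPM (-3.18), *Wnt2* at 12.3 CPM against 63.5 CPM (-2.36), *Sfrp2* at 364 CPM against 1415 CPM (-1.96), *Fgf7* at -1.36 and *Igf1* at -1.31. The Wnt antagonists *Sfrp1* (0.55) and *Dkk3* (0.17) had ratios above 0. Among imprinted growth genes 9 of 12 passed the floor and 4 were lower, with a median of -0.86, beside 8.04% of all genes: *Dlk1* (-3.0), *H19* (-1.42), *Plagl1* (-1.34) and *Cdkn1c* (-1.13).

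Of 21 transcription factors that passed the floor, 1 was higher and 3 lower, with a median of -0.35, beside 3.9% and 8.04% of all genes. *Runx2*, known from bone and activated fibroblasts, stood at 121 CPM against 47.7 CPM (1.35), passing the floor through members alone, and *Runx1* at 0.93. Against *Lrrc15*-positive reference cells no gene of the list was 2-fold higher. *Klf4* (-2.68), *Klf2* (-2.47) and *Atf3* (-2.44) were lower, of which *Klf4* restrains smooth muscle gene expression and *Atf3* is a stress-response gene. The immediate early genes *Fos* (-0.45), *Egr1* (-0.89) and *Junb* (-0.73) had ratios below 0, and *Jun* stood at 0.04. *Twist1* (0.26), *Prrx1* (0.20) and *En1* (0.03), which mark fibroblast lineage, were near the reference.

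Cycling cells were more frequent among members. By 2 or more UMIs and 0.05% of UMIs from 10 cell cycle genes, 79 members (25.5%, exact binomial interval 20.7 to 30.7) and 421 reference cells (6.61%, 6.01 to 7.24) were called cycling. Thinned to 2000 UMIs, the shares were 21.3% and 5.76%. Of 13 cell cycle genes that passed the floor, 9 were higher and 1 lower, with a median of 1.18, beside 3.9% and 8.04% of all genes. *Birc5*, *Ube2c*, *Pclaf*, *Mki67* and *Top2a* reached 50 CPM in members alone and could be counted only as higher. *Birc5* (survivin) stood at 1.75, *Pclaf* at 1.51, *Stmn1* (stathmin) at 1.5 and *Mki67*, the proliferation antigen Ki-67, at 106 CPM against 43.9 CPM (1.27).

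Cycling members held *Tagln* and *Myl9*, as non-cycling members did. *Tagln* stood at 1211 CPM in cycling and 1012 CPM in non-cycling members, and *Myl9* at 345 CPM and 367 CPM. With cycling cells left out of both groups, 21 contractile genes of 30 that passed the floor were higher with a median of 1.27, and the cell cycle list had 7 genes passing, 2 higher and 1 lower. The counts over all genes were then 118 higher and 245 lower, of which 100 and 232 were also called with cycling cells.

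Universal fibroblast markers were lower in members. *Pi16* (peptidase inhibitor 16) had the lowest ratio of the 3048 genes. Of 14 markers 11 passed the floor, and 9 were lower and none was higher, beside 8.04% and 3.9% of all genes, with a median log2 ratio of -3.03. *Pi16*, *Clec3b*, *Ly6c1* and *Dpp4* were among those that reached 50 CPM in the reference alone and could be counted only as lower. *Pi16* was detected in 8.06% of members and 47.4% of reference cells, and in 2.08% of myeloid cells after thinning, against 0.968% of thinned members. Its summed level was 10.4 CPM against 280 CPM, a log2 ratio of -4.76 (-5.23 to -4.32). The thinned share in members was below that of the myeloid cells and is read as background.

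The same direction held for surface and secreted proteins of this state. *Clec3b* (tetranectin) stood at 21.0 CPM against 369 CPM (-4.14), *Ly6c1* at 28.4 CPM against 429 CPM (-3.92), *Cd55* (decay-accelerating factor) at -3.35, *Dpp4* at 16.0 CPM against 131 CPM (-3.03), *Ly6a* at 147 CPM against 1198 CPM (-3.03) and *Cd34* at -2.97. *Mfap5* was the least different, at 657 CPM against 1053 CPM (-0.68). *Scara5* had 9 UMIs in members and *Efhd1* had 1.

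Inflammatory, chemokine and complement genes were lower as a list. Of 30, 22 passed the floor, 16 were lower and none was higher, beside 8.04% and 3.9% of all genes, with a median of -1.82. *C3* and *Il6* were among those that reached 50 CPM in the reference alone and could be counted only as lower. In the median member these genes made up 0.229% of UMIs and in the median reference cell 1.06%. The complement genes had *C3* at 24.7 CPM against 399 CPM (-4.01), *C4b* at -3.43, *C1ra* at -2.36 and *C1s1* at -2.26. *Saa3*, an acute-phase protein, stood at 74.0 CPM against 615 CPM (-3.05), *Ccl11* (eotaxin) at -3.14, *Il6* at 39.2 CPM against 273 CPM (-2.80) and *Has1*, a hyaluronan synthase, at -2.96.

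Monocyte-attracting chemokines and the neutrophil chemokine *Cxcl1* were lower by smaller ratios. *Ccl7* stood at 329 CPM against 1212 CPM (-1.88), *Ccl2* at -1.75, and *Cxcl1* at 865 CPM against 2147 CPM (-1.31). The neutrophil chemokines *Cxcl2* (-0.89) and *Cxcl5* (-0.58) did not reach 2-fold, and *Cxcl5* ranged from -1.44 to 0.11 under the alternatives. The interleukin 1 receptor *Il1r1* (-0.08) and *Cxcl12* (-0.11) were near the reference. *Il11*, a profibrotic cytokine, went the other way below the floor, at 17.0 CPM against 2.92 CPM (2.54).

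The remaining genes of the lower end came from several families. Among them, *Ablim1*, which encodes an actin-binding protein, stood at -3.91 and *Itih5* at -3.64 on the log2 scale. *Lbp* (lipopolysaccharide-binding protein, -4.43), *Akr1c18* (a steroid dehydrogenase, -4.12), *Entpd2* (an ectonucleotidase, -4.08), *Ace* (angiotensin-converting enzyme, -3.98), *Tnxb* (tenascin-X, -3.76), *Mgp* (matrix Gla protein, -3.46) and *Efemp1* (fibulin-3, -3.37) stood at 3.70 to 31.1 CPM in members. At the upper end, *Crabp1*, a retinoic acid binding protein, stood at 321 CPM against 49.2 CPM (2.71) and *Fabp5*, a fatty acid binding protein, at 614 CPM against 125 CPM (2.30). *Cdc42ep3*, an effector of the Cdc42 GTPase, and *Rflnb*, a filamin regulator, both stood at 2.61.

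The study named 9 candidate scar genes by crossing these libraries with bulk sequencing of wounds in newborn mice lacking *PU.1*, and examined them in spatial data. As these libraries took part in the choice, the genes are not independent evidence here. In members 7 were lower and none was higher, beside 8.04% and 3.9% of all genes. These 7 are also named above among the universal and inflammatory genes, so the count is no further result. *Itgbl1*, an integrin beta-like secreted protein at the centre of the study, stood at 51.6 CPM against 88.7 CPM, a log2 ratio of -0.78 (-0.99 to -0.58). The ratio was -0.18 without cells holding a UMI of *Rgs5* or a pericyte gene and -1.03 with median scaling. It was detected in 106 members (34.2%) and 43.2% of reference cells, and 104 members (33.5%) held both a *Tagln* and an *Itgbl1* UMI. Non-cycling members held *Itgbl1* at 61.0 CPM and cycling members at 27.2 CPM. *Lrrc17* was level with the reference (0.10). The study found *Acta2* and *Tagln* in its subcluster F6 and also in another subcluster with proliferation genes. Of 7 genes other than *Acta2* that it listed for F6, also chosen on these libraries, 5 were higher, beside 3.9% of all genes. *Thbs2* (0.73) and *Mmp14* (0.42) were under 2-fold. Against *Lrrc15*-positive reference cells, the *Acta2*-low cells rich in *Lrrc15* described below, 2 of the 7 were higher. *Lrrc15* is among the 7 and also chose those cells, so its own ratio there was set by the selection.

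*Lrrc15*, a membrane protein of wound and tumour fibroblasts, marked a wider population that held most members. With at least 2 UMIs and 0.05% of UMIs taken as positive, 261 of 310 members (84.2%) and 1344 of 6373 reference cells (21.1%) were *Lrrc15*-positive, so that members made up 16.3% of the 1605 positive cells. *Lrrc15* itself stood at 924 CPM against 301 CPM (1.62). Members were therefore also set against these 1344 cells, a comparison added after the data were seen.

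Against the *Lrrc15*-positive reference, 38 of 2980 genes (1.28%) were at least 2-fold higher and 146 (4.9%) lower, and the median of all genes was 0.14. Of 29 contractile genes that passed the floor 9 were higher, with a median of 0.66. *Tagln* had a log2 ratio of 3.25 (3.17 to 3.33), *Myl9* of 2.71, *Actg2* of 4.27, *Tpm2* of 1.90 and *Tpm1* of 1.35. *Tnn* (1.22), *Inhba* (1.47), *Col7a1* (1.83) and *Wnt5a* (1.66) were higher, and *Col12a1* stood at 0.91.

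*Lrrc15*-positive reference cells lay between members and the whole reference for genes of the lower end. *Pi16* stood at 32.0 CPM in them, for a ratio of -1.63 in place of -4.76, and *C3* at 67.8 CPM, for -1.46 in place of -4.01. Even so, 8 of 10 universal markers and 15 of 21 inflammatory genes were at least 2-fold lower in members than in the *Lrrc15*-positive reference, with medians of -1.93 and -1.36. Cycling cells made up 10.9% of the *Lrrc15*-positive reference. Of 13 cell cycle genes that passed the floor, 1 was higher and 1 lower, but their median was 0.73, above that of the contractile list.

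Mural cells of the same library held *Tagln* and *Tpm1* at levels near those of members. *Tagln* stood at 1068 CPM in members and 929 CPM in mural cells, and *Tpm1* at 1112 CPM and 1036 CPM. *Acta2*, whose level in members the rule set, stood at 2842 CPM and 2319 CPM. *Myl9* was lower in members, at 361 CPM against 599 CPM. *Col1a1* stood at 29923 CPM in members and 12134 CPM in mural cells, *Tnn* at 528 CPM and 31.2 CPM and *Inhba* at 182 CPM and 61.6 CPM. The gate required fibroblast genes, collagens among them, of members but not of mural cells, with median shares of 2.95% and 0.722% of UMIs. Higher *Col1a1* in members is therefore not independent of the selection. The list of other collagen chains went the other way, at 6229 CPM in members and 9709 CPM in mural cells. *Rgs5*, which defined both classes, stood at 1.48 CPM and 6347 CPM. Mural cells were shallower, with a median of 6177 UMIs.

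**Figure D4:**
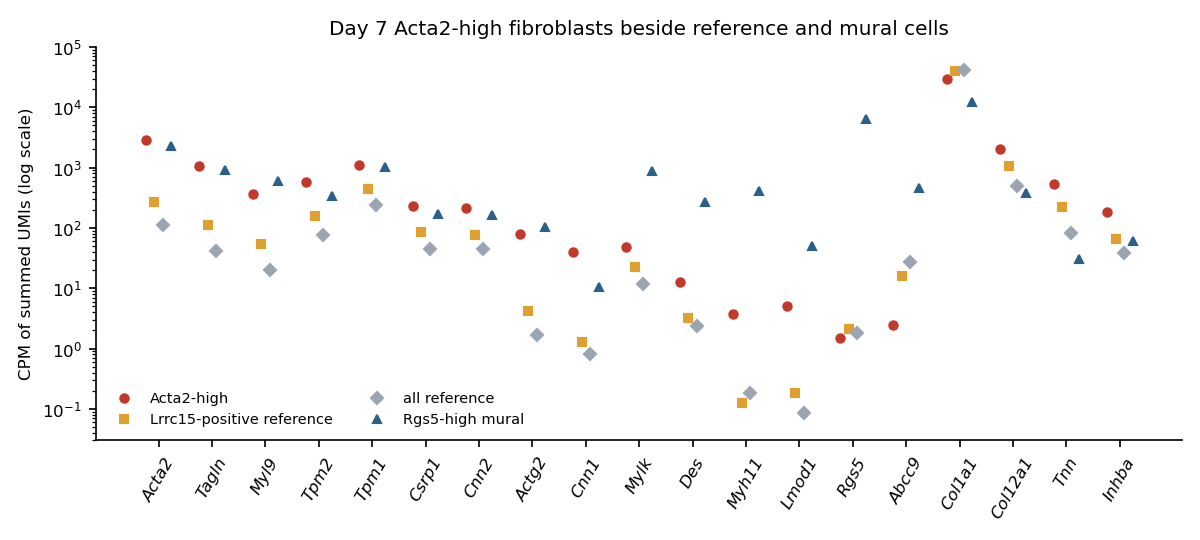
Summed level in CPM on a logarithmic axis for 19 genes in members, reference fibroblasts, *Lrrc15*-positive reference fibroblasts and *Rgs5*-high mural cells. Members stand close to mural cells in *Tagln* and *Tpm1* and above them in *Tnn* and *Col1a1*, while *Acta2* and *Rgs5* are values that the selection used. The gate also required fibroblast genes of members and reference cells but not of mural cells.

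Markers of the arrector pili muscle and the dermal sheath and papilla of the hair follicle, other skin sources of smooth muscle actin, summed to 417 CPM in members, 65.6 CPM in the reference and 164 CPM in mural cells, nearly all of it from *Actg2* and *Crabp1*. Of 9, *Corin* and *Sox2* had no UMI in members, which allows up to 3, *Sox18* had 1, *Myocd* 2, *Npnt* 3, *Itga8* 9 and *Rspo3* 47. *Actg2* and *Crabp1* passed the floor, both through members alone, so that they could be counted only as higher.

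The graded choice of the limit was examined by dividing the gated cells into 7 tiers of *Acta2*, from 4458 cells with no *Acta2* UMI to 109 cells at 0.3% or more. *Tagln* was higher in each successive tier, from 9.90 CPM to 50.6, 235, 381, 604, 881 and 1665 CPM, and *Tpm1* from 155 to 1466 CPM. *Tnn* ran from 31.2 to 700 CPM and *Col12a1* from 295 to 2238 CPM. *Col3a1* went the other way, from 36706 to 14566 CPM, and *Col1a1* from 43650 to 28442 CPM. Since *Acta2* defined the tiers, these sequences are descriptions.

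The steps differed between genes. *Cnn1* stood at 15.6 CPM at 0.2% to 0.3% of *Acta2* and 79.5 CPM in the highest tier, and *Actg2* at 70.0 and 140 CPM. *Col12a1* had reached 1319 CPM at 0.05% to 0.1%, well below the limit for members. *Spp1* was highest at 0.15% to 0.2%, with 1349 CPM, and stood at 587 CPM in the highest tier. *Postn* varied little, from 4374 CPM without *Acta2* to 5752 CPM in the next tier and 5502 CPM in the highest. *Pi16* was 375 CPM without *Acta2* and 122 CPM in the next tier. Cycling cells made up 3.30% of the lowest tier and 33.0% of the highest, with 18.0% in the tier between 0.2% and 0.3%.

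**Figure D5:**
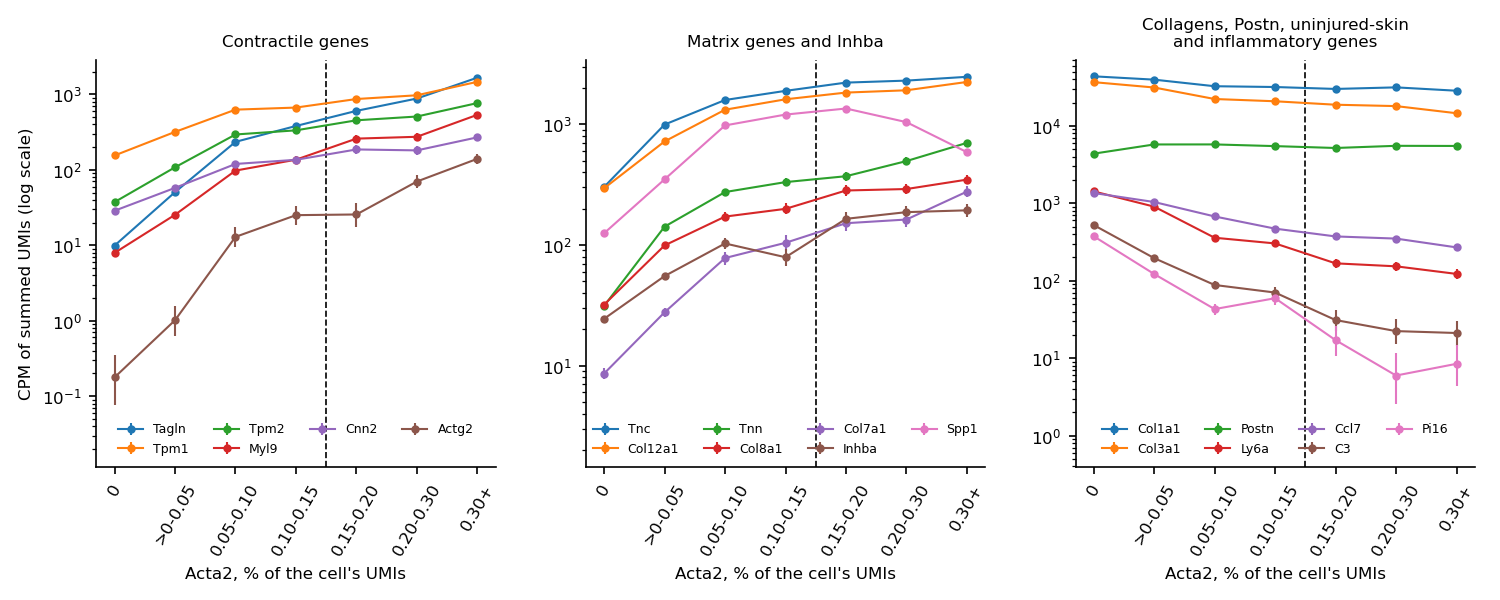
Level in CPM on a logarithmic axis across 7 tiers of *Acta2* among gated Day 7 fibroblasts, in 3 panels of genes, with 95% counting intervals. Contractile genes are highest in the last tier, *Col3a1* is lowest there, and *Spp1* has its highest value at 0.15% to 0.2%.

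Members also varied among themselves. Across the 310 cells, which share 1 library and whose depths differ, the Spearman correlation with the *Acta2* share was 0.51 for *Tagln*, 0.40 for *Tpm1*, 0.38 for *Myl9*, 0.37 for *Tpm2*, 0.33 for *Actg2*, 0.21 for *Tnn* and -0.29 for *Col3a1*. Those of *Col1a1* (-0.07), *Spp1* (-0.09) and *Itgbl1* (-0.03) were close to 0. *Spp1* ranged widely, from 0 to 25053 CPM with a median of 195 CPM, and *Tnc* ranged from 0 to 11165 CPM with a median of 1739 CPM.

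On the other days the same rule found almost no cells. It kept 3 of 366 gated fibroblasts on Day 3 (0.82%, exact binomial interval 0.169 to 2.38), 310 of 6683 on Day 7 (4.64%, 4.15 to 5.17) and 4 of 7108 on Day 14 (0.0563%, 0.0153 to 0.144). The intervals do not overlap between Day 7 and the other days but cover counting error within 1 library per day only. *Acta2* over all gated fibroblasts stood at 123, 262 and 16.4 CPM on Days 3, 7 and 14. Gated cells were far deeper on Day 3, with a median of 45643 UMIs in reference cells, than on Day 7 or on Day 14 (10533.5 UMIs).

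*Tagln* and *Myl9* were also higher in the few cells of Days 3 and 14. All 3 and all 4 held *Tagln*, whose log2 ratio against the reference of the same day was 4.40 on Day 3 and 5.98 on Day 14, beside 4.67 on Day 7. *Myl9* stood at 4.33, 4.14 and 4.71 on Days 3, 7 and 14. Other markers varied. *Col12a1* had ratios of -0.25 (-0.70 to 0.16), 2.01 and 1.75 (1.15 to 2.29), and *Inhba* of -1.56 (-3.43 to -0.20), 2.25 and 0.93 (-2.12 to 2.79). With 3 and 4 cells these ratios describe single cells and no contrast over all genes was made for these days.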

How the data were processed

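Single-cell libraries of Day 3, Day 7 and Day 14 skin wounds were deposited as tables of raw UMI counts, 32285 genes by cell barcode. The authors prepared them with a 3' droplet kit, and the submitters' processing notes name Cell Ranger 6.0.0 and mm10. Because tags come from 3' ends, levels were compared between groups and not between genes. Ensembl identifiers were matched to symbols for 32158 genes.

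Counts were summed over the cells of each group and given as CPM, with exact Poisson intervals. Ratios had exact conditional binomial intervals and shares Clopper-Pearson intervals, all at 95% and covering counting error within 1 library only. No p-value was computed. Genes at 50 CPM in either group and 10 UMIs in both were compared, without *Acta2*, gate genes, *Rgs5* and mitochondrial genes, and called at 2-fold. Mural cells had *Rgs5* at 0.1% of UMIs or more, and myeloid cells immune genes at 1% or more and fibroblast genes under 0.3%. No doublet caller was run. Instead, cells with UMIs of other classes or high depth were left out as alternatives. Named were the 15 highest and 15 lowest ratios and the genes of the lists, a few of which are not reported here. Members and lists were chosen with earlier results of these data known. The interval code was tested on simulated data. Python 3.11.15, numpy 2.4.6, scipy 1.17.1, pandas 2.3.3 and matplotlib 3.10.9 were used.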

Additional observations from a re-analysis of the deposited data

How the results depend on the processing

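Day 7 members and reference came from 1 library, so the intervals carry no variation between wounds or animals, and days could not be compared beyond their libraries. No paired analysis was possible because each day had 1 library. In all, 17 alternatives were planned and 3 were added after the data were seen. The 30 genes at the ends, picked as extremes of the same counts, stayed at 2-fold or more under every alternative that could test them. Of 121 genes of the ends and lists at 2-fold, none changed sign, but some fell under 2-fold. *Fhl2* went from 1.10 to as low as 0.40, *Tnc* from 1.96 to 0.78 and *Lrrc15* from 1.62 to 0.20. *Lrrc15* itself chose the cells of the *Lrrc15*-positive reference, so a smaller *Lrrc15* ratio against them was set by the selection. Of 176 such genes under 2-fold, 52 changed sign. Genes first named under other observations, *Pcolce2* among them, lie outside the 121. The share of gated cells that were members was 6.72% with an *Acta2* limit of 0.1%, 1.63% with 0.3%, 6.62% without cells holding a UMI of *Rgs5* or a pericyte gene, 4.07% without the deepest 10% of cells, 3.74% without cycling cells and 5.73% after thinning to 2000 UMIs. The count of higher genes was 196 with the 0.3% limit, 224 against reference cells without an *Acta2* UMI (43.0% of calls higher), 72 with median scaling, 38 against the *Lrrc15*-positive reference (146 lower), 59 with the floor over all gated cells (19.7% of calls higher) and 423 with a floor of 10 CPM (475 lower, 47.1% higher). Reference cells drawn to match the depth of members gave 91 higher and 227 lower, of which 91 and 222 were also called in the comparison reported above, and splitting each cell's UMIs at random into a part that chose the cells and a part that measured them gave 126 and 246, of which 109 and 229 were. The causes of these shifts were not tested beyond the construction of each alternative.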

Other observations

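Of the genes at least 2-fold higher in *Acta2*-high fibroblasts, 67 of 119 were in no list, and 189 of 245 lower ones, and those named here were chosen after their values were seen. *Fblim1* (migfilin, which binds filamin) stood at 59.7 CPM against 15.04 CPM, a log2 ratio of 1.99 (95% interval 1.78 to 2.19), *Mical2* (an oxidase acting on nuclear actin) at 1.65, *Tln2* (talin-2) at 1.5, *Tgfb1i1* (the adhesion protein Hic-5) at 1.14 and *Lims1* (PINCH, a partner of integrin-linked kinase) at 1.02. *Myl12a*, another regulatory myosin light chain, stood at 625 CPM against 279 CPM (1.16). *Kif26b*, a kinesin family protein of *Wnt5a*-Ror signalling, stood at 122 CPM against 25.8 CPM (2.24). *Fblim1* and *Kif26b* reached 50 CPM in members alone, as *Wnt5a* did, and could be counted only as higher. A link between these genes was not tested.

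On the lower side, the metallothioneins *Mt1* and *Mt2* stood at 660.5 CPM against 2369 CPM (-1.84) and 287 CPM against 1490 CPM (-2.38). *Ugdh*, which makes the glucuronic acid precursor of hyaluronan, stood at 204 CPM against 878 CPM (-2.11) and *Gfpt2*, of the hexosamine pathway, at -2.17, in the same direction as the synthase *Has1*. *Igfbp4* (-1.94) and *Igfbp6* (-2.10), the pentraxin *Ptx3* at 110 CPM against 863 CPM (-2.97) and *Dpt* (dermatopontin) at 442 CPM against 1971 CPM (-2.16) were also lower. *Pcolce2*, an enhancer of procollagen processing, was lower against the whole reference (-1.88) and higher against the *Lrrc15*-positive reference (1.19).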
